A study of Mus musculus with 6 samples.

Results

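The genes followed here encode the first steps of insulin signalling in the ventromedial hypothalamus (VMH) of mice that lack FoxO1 in this nucleus. They are the receptors Insr and Igf1r, the docking proteins Irs1, Irs2 and Irs4, the catalytic phosphoinositide 3-kinase (PI3K) subunits Pik3ca and Pik3cb, and the regulatory subunits Pik3r1 and Pik3r2. The members were all probes of the array annotated with 1 of these 9 symbols, among 19057 genes with a symbol on the array. Of the 9 genes, 8 were read by 17 probes, and no probe of Irs4 was analysed here. Of these 17 probes, 12 were detected above background on at least 3 of the 6 arrays and were tested, with at least 1 probe for each of the 8 genes. The other 5 probes, 1 of Insr, 2 of Igf1r and 2 of Pik3r1, were too dim to test.

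Insulin binds the insulin receptor, a tyrosine kinase of the cell surface, and the closely related receptor encoded by Igf1r binds the insulin-like growth factors. The active receptor phosphorylates the insulin receptor substrates (IRS proteins), to which PI3K binds through its regulatory subunit. The lipid that PI3K makes activates the kinase Akt, which phosphorylates FoxO1 and so keeps it out of the cell nucleus. FoxO factors are known, from work in liver and other cells, to raise transcription of Insr and Irs2 when insulin is low, so these genes lie both upstream of FoxO1 and among its targets. In the hypothalamus insulin and PI3K signalling take part in the control of energy balance.

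Total RNA was compared between mice with a knockout of FoxO1 specific to the VMH (KO) and wild-type mice (WT), all on a mixed strain background and untreated. Each genotype had 3 arrays, each hybridised with a pool of RNA from 3 animals, and a replicate is such a pool. The sources used here give neither sex and age nor the driver of the deletion. The dissected tissue holds cells of many types, and a lower signal can come from fewer cells of a type as well as from less RNA per cell.

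Signals of all arrays had been brought to 1 common distribution before deposit, with a lowest value of 111.3. A signal near 150 was not told from background: the Insr probe ILMN_2628026 read 151.2 on WT 2, with a detection p of 0.19. KO 1 stood apart from the other arrays, with a mean correlation of 0.954 with them over tested probes, where the others had 0.977 to 0.981, and the member results are therefore given with and without it. Of 12 VMH neuron markers 11 were tested, with a mean log2 level of 9.21 in KO and 9.35 in WT. Nr5a1, a transcription factor that defines VMH neurons, was detected on all 6 arrays on its brighter probe, near background, and differed by 0.13 log2 there (KO minus WT). Its dimmer probe, detected on 2 KO and 2 WT arrays, differed by -0.19 log2, and by -0.22 without KO 1. Nr0b1 was the VMH marker with no detected probe. Foxo1 itself read 1.56-fold lower in KO on its brighter probe, a difference of -0.65 log2 (SE 0.24), or -0.38 without KO 1. All KO arrays were under all WT arrays, but limma's moderated test made no call (adjusted p = 0.582). Without background correction the difference was -0.35. A dimmer Foxo1 probe, detected on 2 KO and 2 WT arrays, differed by 0.34 log2 and by 0.72 without KO 1. Where these probes lie in the gene is not known here, so they do not check the deletion.

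Values per array are given first as deposited signals, on a linear scale. Means and differences are on a log2 scale after background correction, with SDs over the arrays of a genotype and the SE of the difference from limma. Probes bind with different strength, so the level of 1 gene is not set against that of another. Across the 12 tested member probes 0 passed limma's moderated test at a Benjamini-Hochberg adjusted p under 0.05, where 0.005% of all 20006 tested probes did. At an unadjusted p under 0.05 there were 0 of the 12, against 7.58% of all tested probes (3.8% lower and 3.77% higher in KO).

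The Insr probes did not all read the same. The brightest, ILMN_1242794, carries the Insr symbol but no transcript accession in the array annotation used here, and where it lies in the gene is not known here. It gave signals of 613.4, 930.3 and 943.3 on KO 1, KO 2 and KO 3, against 1089.1, 982.2 and 1153.3 on WT 1, WT 2 and WT 3. All KO arrays read below all WT arrays, and KO 1 was by far the lowest. The log2 means were 9.42 ± 0.42 in KO and 9.88 ± 0.13 in WT (SD over 3 pools each), for a difference of -0.47 (SE 0.22) or 1.38-fold. This did not pass the limma test (adjusted p = 0.582, unadjusted p = 0.0681). Without KO 1 the difference was -0.22 (SE 0.14), or 1.17-fold, and KO 2 and KO 3 remained below all WT arrays (limma adjusted p = 0.937).

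The other Insr probes were at or near background. ILMN_1251719 read 176.6, 181.8 and 176.0 in KO against 180.8, 179.3 and 184.8 in WT, close to background, and the genotypes overlapped. Its difference was -0.092 (SE 0.15; 95% interval -0.42 to 0.24), and -0.072 without KO 1. ILMN_2628026, the Insr probe annotated to a RefSeq transcript, was detected on no array, with signals of 140.4 to 147.3 in KO and 136.0 to 151.2 in WT.

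Igf1r had the largest difference in size among the tested member probes. Its brightest probe, ILMN_1249824, gave signals of 256.1, 506.2 and 458.3 on KO 1, KO 2 and KO 3, against 581.0, 513.3 and 607.0 on WT 1, WT 2 and WT 3. The genotypes did not overlap, KO 1 read 50.6% of KO 2, and KO 2 came close to WT 2. In log2 the probe read 7.98 ± 0.85 in KO and 8.78 ± 0.16 in WT (SD over 3 pools each), for a difference of -0.79 (SE 0.37) or 1.73-fold, with a limma adjusted p of 0.582 (unadjusted p = 0.0619). Without KO 1 the difference was -0.31 (SE 0.15), or 1.24-fold, and the arrays still did not overlap (limma adjusted p = 0.937). Both receptors thus placed the 6 arrays in almost the same order: KO 1 lowest, the other KO arrays next, then WT 2, WT 1 and WT 3.

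A second Igf1r probe did not share this separation. ILMN_1239663 read 173.1, 235.5 and 213.2 in KO against 197.2, 210.0 and 236.7 in WT. KO 1 was again the lowest array, but KO 2 and KO 3 lay among the WT arrays. The difference was -0.19 (SE 0.31), and 0.17 (SE 0.21), of opposite sign, without KO 1. The remaining probes, ILMN_2482214 and ILMN_1232222, were each detected on KO 2 and on no other array, with signals of 157.5 to 172.6 in KO and 153.9 to 164.7 in WT over both.

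**Figure D1:**
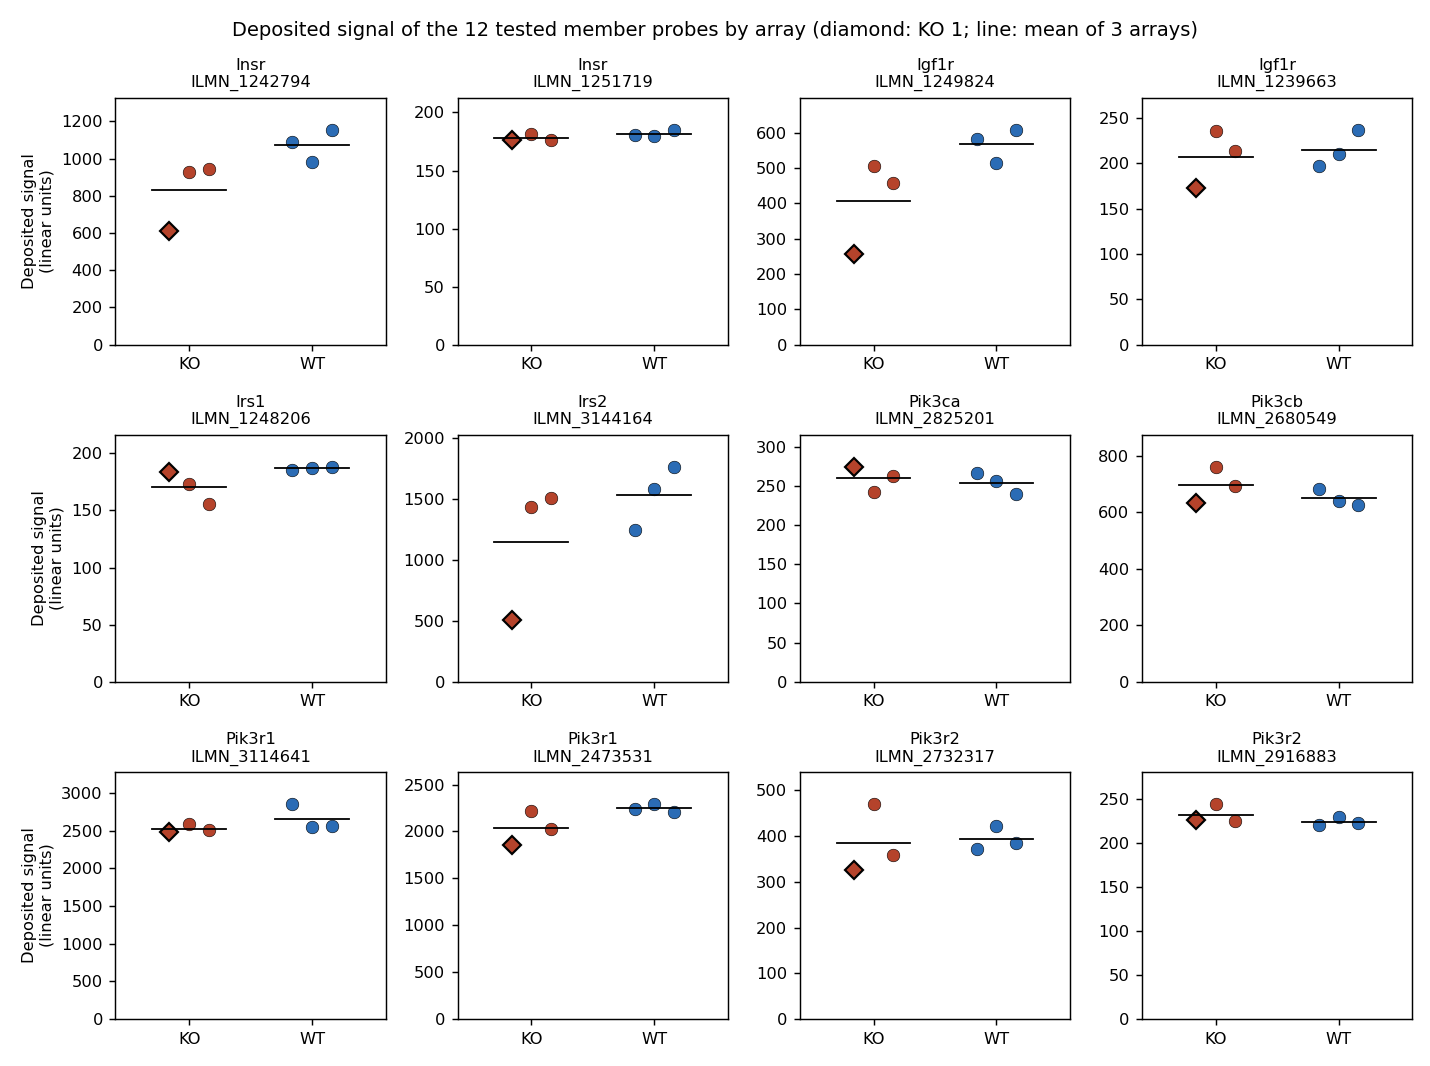
Deposited signal (linear units, axes from 0) of each of the 12 tested member probes, with KO arrays on the left and WT arrays on the right of each panel; points are arrays, diamonds mark KO 1 and lines are means of 3 arrays. The brightest Insr and Igf1r probes and the Irs1 probe have each KO point below each WT point, while KO 1 alone sets the Irs2 KO mean apart.

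FoxO factors bind the letters GTAAACA and a variant in insulin-responsive promoters, the insulin response element, searched here as CAAAACA. Both strands of the 250 bases before each annotated start were searched, in the RefSeq promoter table of GRCm38.p6, which held 8 of the 9 members in 9 windows; Insr has no entry there and was not searched. CAAAACA, or its reverse complement TGTTTTG, was found before Irs1, Irs2 and Irs4 and before no other member in the table, where 5.56% of 32851 promoter windows hold it. GTAAACA was found before none of the 8, where 3.17% of windows hold it. The motifs differ in letters, so no stretch can match both. These are matches of letters, not binding sites measured in this study. The IRS promoters are shown because the factor deleted in these mice is known to bind this element, with the match in capitals, 5′ to 3′ on the strand of the gene (the minus strand in each case).
Irs1, chr1:82291440-82291689: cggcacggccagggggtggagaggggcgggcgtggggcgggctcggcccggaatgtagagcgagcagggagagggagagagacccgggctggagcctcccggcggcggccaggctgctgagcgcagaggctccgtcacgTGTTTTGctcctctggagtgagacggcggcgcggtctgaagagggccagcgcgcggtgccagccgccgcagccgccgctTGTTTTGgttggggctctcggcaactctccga
Irs2, chr8:11008930-11009179: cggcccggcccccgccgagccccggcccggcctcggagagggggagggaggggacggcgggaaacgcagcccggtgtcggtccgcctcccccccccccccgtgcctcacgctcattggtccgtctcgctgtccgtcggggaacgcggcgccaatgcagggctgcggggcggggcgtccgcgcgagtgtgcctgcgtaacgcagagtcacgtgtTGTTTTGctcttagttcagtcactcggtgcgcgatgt
Irs4, chrX:141725218-141725467: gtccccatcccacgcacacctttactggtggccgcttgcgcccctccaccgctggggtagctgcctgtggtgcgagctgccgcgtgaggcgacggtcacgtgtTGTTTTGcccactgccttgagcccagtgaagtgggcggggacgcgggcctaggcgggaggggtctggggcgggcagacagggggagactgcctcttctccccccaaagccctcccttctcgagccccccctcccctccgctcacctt

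The match begins 37 bases before the start of Irs2 and 147 bases before that of Irs4, and at 111 and 32 bases before that of Irs1. Around it, the Irs2 and Irs4 windows share a run of 17 letters, gtcacgtgtTGTTTTGc, on different chromosomes. Irs1 and Irs2 share no run longer than 10 letters. A run of this length, gtcacgTGTT, reaches into the match, and another, TGTTTTGctc, holds all of it.

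Irs2, a docking protein known for its part in beta cells and in the hypothalamic control of body weight, had the widest spread among the KO arrays. Its probe ILMN_3144164 gave signals of 509.5, 1431.4 and 1505.2 on KO 1, KO 2 and KO 3, against 1242.7, 1586.1 and 1761.6 on WT 1, WT 2 and WT 3. KO 1 read 35.6% of KO 2 and 33.8% of KO 3, while KO 2 and KO 3 lay above WT 1 and below WT 2 and WT 3. The log2 means were 9.79 ± 1.05 in KO and 10.44 ± 0.28 in WT (SD over 3 pools each), for a difference of -0.65 (SE 0.45), and the limma adjusted p was 0.593. Without KO 1 the difference was -0.048 (SE 0.18), with an adjusted p of 0.985.

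Irs1, the other widely expressed docking protein, was read near background. Its probe ILMN_1248206 gave signals of 183.5, 173.0 and 155.3 in KO, where KO 3 was not detected, against 185.0, 187.4 and 187.8 in WT. All KO arrays read below all WT arrays, and here KO 3, not KO 1, was the lowest. In log2 it read 5.46 ± 0.41 in KO and 5.90 ± 0.04 in WT (SD over 3 pools each), for a difference of -0.44 (SE 0.21; limma adjusted p = 0.582, unadjusted p = 0.0698). Without KO 1 the difference was -0.63 (SE 0.18), with an unadjusted p of 0.0085 but an adjusted p of 0.937, and 4.53% of all tested probes then had an unadjusted p under 0.05. Without KO 3 it was -0.22. The size also depended on the background step: without background correction the Irs1 difference was -0.13 (SE 0.083), or 1.10-fold, whereas Insr, Igf1r and Irs2 then differed by -0.40, -0.54 and -0.55 on their brightest probes.

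The catalytic subunits of PI3K, which transfer phosphate to the lipid, gave differences near 0. Pik3ca, the alpha subunit used by most insulin signalling, read 274.0, 242.4 and 263.0 on ILMN_2825201 in KO, against 266.4, 256.0 and 239.9 in WT, and the arrays overlapped. Its log2 difference was 0.061 (SE 0.17; 95% interval -0.32 to 0.44), and -0.015 without KO 1. Pik3cb, the beta subunit, read 633.7, 759.6 and 692.2 on ILMN_2680549 in KO, against 682.2, 640.1 and 625.2 in WT. KO 1 lay among the WT arrays, and KO 2 and KO 3 lay above them. The Pik3cb difference was 0.12 (SE 0.16; 95% interval -0.24 to 0.47), and 0.20 (SE 0.14) without KO 1. These intervals leave room for differences of either sign, and neither gene passed the limma test (adjusted p = 0.883 for Pik3ca and 0.75 for Pik3cb).

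The regulatory subunits tie the catalytic subunit to the receptor complex. Pik3r1, which encodes the alpha regulatory subunit in several lengths, read 2477.7, 2591.3 and 2506.9 on its brightest probe, ILMN_3114641, in KO, against 2849.9, 2552.2 and 2565.1 in WT. Its log2 means were 11.23 ± 0.04 in KO and 11.30 ± 0.09 in WT (SD over 3 pools each), for a difference of -0.075 (SE 0.14; 95% interval -0.40 to 0.25). This was the probe with the least spread among KO arrays of the 12, with KO 1 close to the other arrays. The probe annotated to another Pik3r1 transcript, ILMN_2473531, read 1857.8, 2219.3 and 2028.7 in KO, against 2243.3, 2288.2 and 2204.8 in WT. KO 1 and KO 3 lay below all WT arrays and KO 2 did not, for a difference of -0.15 (SE 0.15), and -0.087 without KO 1. ILMN_3040050 and ILMN_1249335, the dim Pik3r1 probes, were detected on no array of either genotype.

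Pik3r2, the beta regulatory subunit, was read by a pair of probes that overlapped between genotypes. ILMN_2732317 gave signals of 326.8, 469.4 and 359.2 in KO, against 372.0, 422.9 and 384.6 in WT. KO arrays were both the lowest and the highest of the 6. The difference was -0.078 (SE 0.22), and 0.088 without KO 1, a change of sign. ILMN_2916883 gave signals of 225.6, 243.8 and 224.9 in KO, against 220.2, 229.2 and 222.9 in WT, with a difference of 0.10 (SE 0.15) and 0.14 without KO 1.

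**Figure D2:**
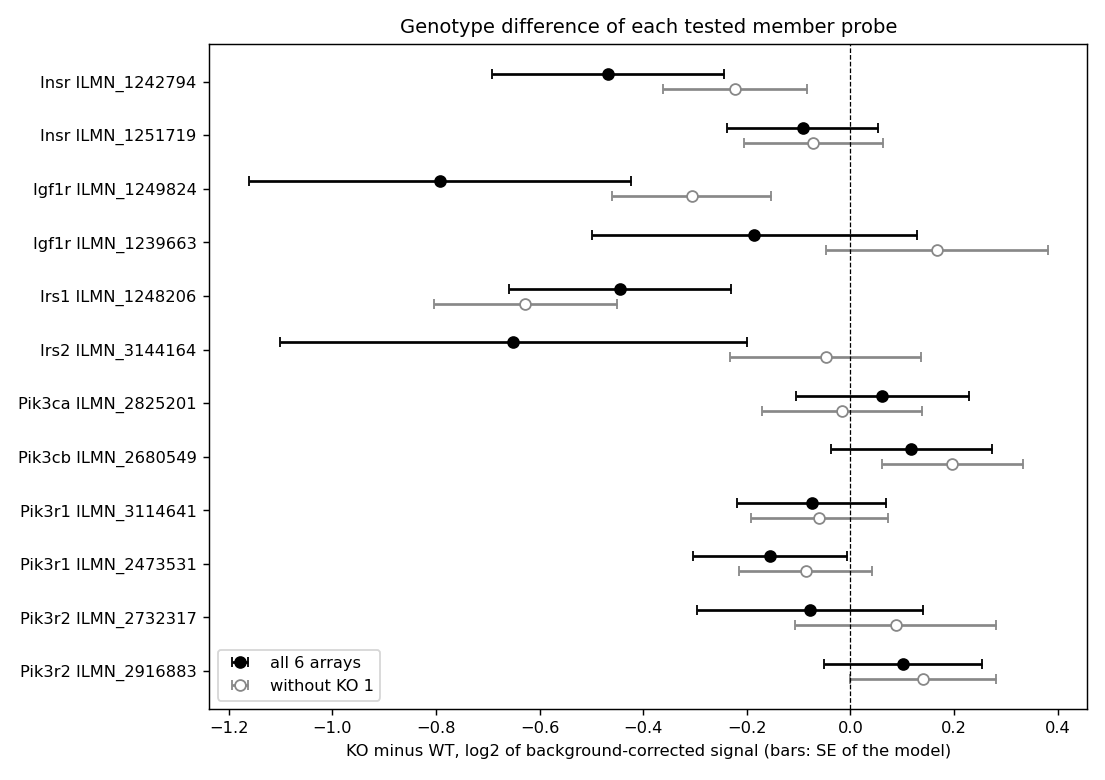
Difference of KO minus WT (log2 of background-corrected signal, x axis) for each tested member probe, with bars for the SE of the model; filled points use all 6 arrays and open points leave out KO 1. The brightest Insr and Igf1r probes keep a negative difference of smaller size without KO 1 (-0.22 and -0.31), Irs2 moves to -0.048, and the PI3K subunits lie between -0.15 and 0.12 with all arrays.

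Counted together, 9 of the 12 tested member probes had a difference below 0, where 47.1% of all tested probes did. Their median was -0.12, against 0.021 over all tested probes. For 3 of the 12, Insr, Igf1r and Irs1 with 1 probe each, every KO array lay below every WT array, where 6.24% of all tested probes did. The reverse, every KO array above every WT array, held for 0 of the 12, where 8.84% of all tested probes did. Without KO 1 the same 3 probes were separated downward (8.33% of all tested probes) and the Pik3cb probe upward (11.5%), 8 of 12 differences were below 0 (47.2% of all tested probes), and the median was -0.054. The member probes come from 8 genes on shared arrays and are not independent of each other.

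KO 1 was the lowest of the 6 arrays for 7 of the 12 member probes and the highest for 1, Pik3ca. The same count was not made over all tested probes, on which KO 1 also stood apart. It therefore cannot be read as a trait of the members. Set against the mean of the other 5 arrays, Irs2 lay 1.84 lower in log2 on KO 1, and 55 of the 20006 tested probes lay as low or lower. Igf1r lay 1.64 lower on its brightest probe (139 probes as low or lower), and Insr 0.87 lower (1723 probes, or 8.61%). Irs1 lay 0.17 higher on KO 1 and Pik3ca 0.22 higher. Values on KO 1 also varied with the span of the annotated gene. Relative to the other 5 arrays, the median over 1570 tested genes over 100 kb was -0.23, and over 2824 genes under 10 kb 0.24. Insr, Igf1r and Pik3cb belong to the first class and Pik3r2 to the second, while Irs2 lies in the class of 10 to 30 kb, with a median of 0.071. The same medians were not computed for any other single array. For KO minus WT, the medians over 100 kb and under 10 kb were -0.10 and 0.13 with all arrays. Without KO 1 they were -0.039 and 0.063, in the same order.

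Markers of other cell types moved with KO 1 as well, and their part in these results was not tested. Of 29 exocrine pancreas genes 22 were tested, and their summed background-corrected signal ranged from 20715 to 118403 in KO, highest on KO 1, and from 14391 to 87935 in WT, highest on WT 1. Ctrc was the exocrine gene with a probe but no detection. The islet genes Ins2, Gcg, Pdx1 and G6pc2 were detected on no array. The 6 tested neuron markers of 8 had a mean log2 level of 10.85 on KO 1, against 11.31 to 11.46 on all other arrays, with summed signals of 25623 to 40268 in KO and 40010 to 42286 in WT, and Snap25 and Nefl were detected on no array. The 7 tested endothelial markers of 8 were lowest on KO 1, at 6.95 against 7.24 to 7.53 on the other arrays, with summed signals of 1463 to 2117 in KO and 1885 to 2489 in WT and Kdr detected on none. The 12 tested microglia markers of 14 were highest on KO 1, at 8.22, with 7.66 and 7.72 on the other KO arrays and 7.25 to 7.72 in WT, with summed signals of 2883 to 4288 in KO and 2131 to 3032 in WT, and Itgam was detected on none. The 5 tested blood markers of 9 did not single out KO 1 and lay at 9.93 to 10.28 in KO and 9.22 to 9.33 in WT, with summed signals of 16034.5 to 19342 in KO and 11762 to 13716 in WT and Slc4a1 detected on none.

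Markers of the dissected nucleus and of its neighbour were set beside these. The 11 tested VMH markers had a mean log2 level of 8.999 on KO 1, the lowest array, against 9.17 and 9.47 on the other KO arrays and 9.23 to 9.44 in WT. Of these 11, 7 had a difference below 0 (47.1% of all tested probes), with a median of -0.093. Without KO 1 the median was 0.050, with 5 below 0 (47.2% of all tested probes) and 6 above. With all arrays 1 had an unadjusted p under 0.05 with limma (7.58% of all tested probes), Cckbr, named after its value was seen. The Cckbr difference was -0.76, and -0.56 without KO 1. Markers of the arcuate nucleus, which lies next to the VMH, did not follow KO 1. Of 8 arcuate markers the 7 with a probe were tested, with a median difference of -0.20 and 6 below 0. Without KO 1 the median was -0.42, and 4 of the 7 had an unadjusted p under 0.05 with limma (4.53% of all tested probes). Also without KO 1, 4 of the 7 were separated downward (8.33% of all tested probes), Npy among them at -0.59. Kiss1, named after its value was seen, went the other way. It was separated upward, with a difference of 0.71 with all arrays and of 0.49 without KO 1. None of the 7 passed the adjusted threshold of limma, and the part of dissection in the member results was not tested.

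**Figure D3:**
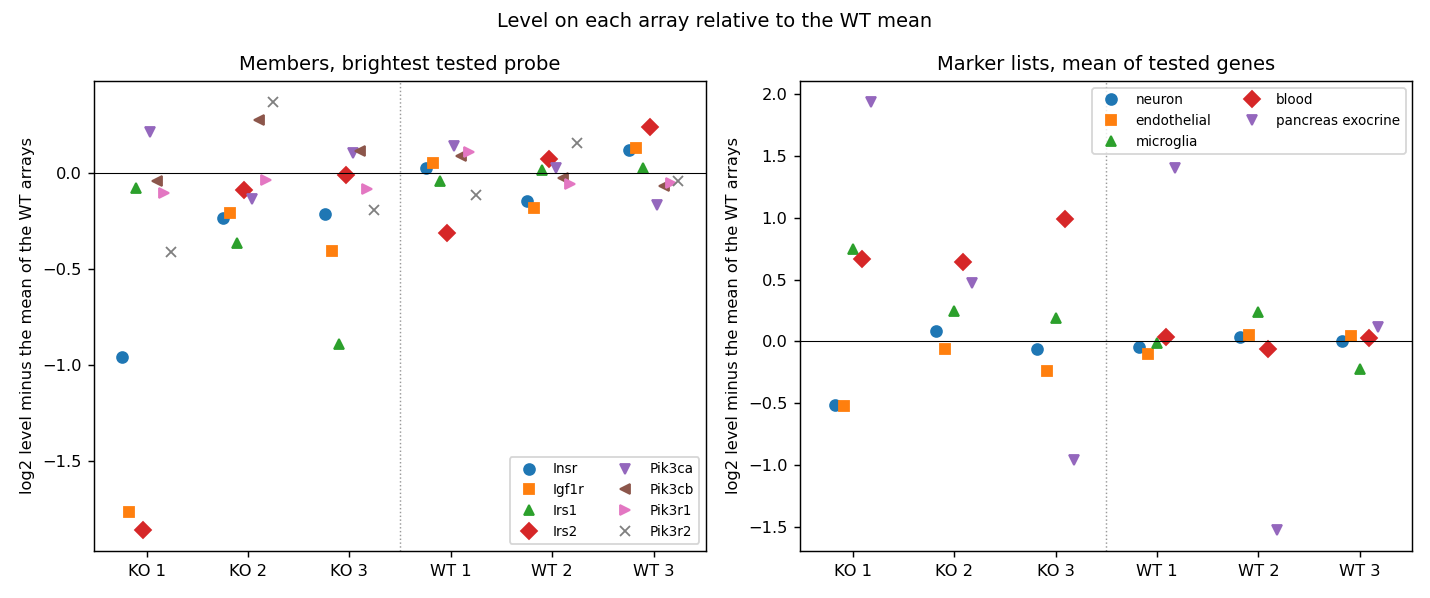
Log2 level on each array minus the mean of the WT arrays (y axis), for the brightest tested probe of each member gene (left) and for the mean of 5 marker lists (right), with KO arrays left of the dotted line. Insr, Igf1r and Irs2 dip on KO 1 together with neuron and endothelial markers, while microglia and exocrine pancreas markers are highest there.

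The rest of the pathway was read through 78 further genes in 6 lists, of which 51 were tested with their brightest probe. With limma 0 of the 51 passed the adjusted threshold, and 3 higher and 1 lower had an unadjusted p under 0.05, or 7.84%, close to the 7.58% of all tested probes. Their median difference was -0.084, and -0.030 without KO 1. All KO arrays read below all WT arrays for 4 genes and above for 6, or 7.84% and 11.8%, near the shares of all tested probes given above.

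Among ligands and other receptors, 3 of 6 genes were tested, and Igf2, a growth factor that acts through the Igf1r product, had the smallest p. Igf2 read 2378.6, 2023.7 and 1892.4 in KO, against 1649.6, 1652.8 and 1558.4 in WT, each KO array above each WT array. The difference was 0.39 (SE 0.16) in log2, and 0.29 without KO 1 (limma adjusted p = 0.582). Igf1, read near background, differed by 0.21 (SE 0.16), by 0.064 without background correction, and by 0.015 on its other probe.

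Adaptors other than the IRS genes had 10 of 15 genes tested, 6 of them below 0. Nck1, an adaptor that links phosphotyrosine to the actin skeleton, read 9.40 ± 0.39 in KO and 8.95 ± 0.07 in WT (SD over 3 pools each), with no overlap and a difference of 0.45, or 0.23 without KO 1. Gab1, a docking protein that can bind PI3K much as the IRS proteins do, lay on the other side. It read 535.6, 890.7 and 894.5 in KO against 1010.2, 968.5 and 1021.4 in WT, again without overlap and with KO 1 lowest, for a difference of -0.49 (SE 0.25) and of -0.19 without KO 1. Neither passed the limma test (adjusted p = 0.582 for each).

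Of 12 other PI3K subunits and regulators 7 were tested, with a median of 0.093 and no gene whose genotypes were apart. Pik3c2a, a class of PI3K that works in membrane traffic, differed by 0.24 (SE 0.16), or 0.069 without background correction, and Pik3c3, the kinase of autophagy, by -0.19 (SE 0.15). Lipid phosphatases, which remove the product of PI3K or turn it into other lipids, had 6 of 8 genes tested, 5 of them below 0, with a median of -0.17 and of -0.029 without KO 1. Inpp5k read 10.84 ± 0.34 in KO and 11.23 ± 0.08 in WT (SD over 3 pools each), for a difference of -0.40, with other tested probes at -0.18 and 0.085, and Inpp5e also differed by -0.40. Without KO 1 both brightest probes differed by less, at -0.20 for Inpp5k and -0.19 for Inpp5e.

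A list of genes that act on the receptor or the IRS proteins, most of them inhibitors, had 16 of 21 tested, 7 above 0 and 9 below. It also holds Sh2b1 and Ptpn11, known to promote insulin signalling, at -0.26 and -0.18. Socs6, which binds the insulin receptor, read 271.7, 231.0 and 233.0 in KO against 195.5, 212.7 and 224.1 in WT, a difference of 0.50 (SE 0.20), and 0.34 without KO 1. Prkcq, a kinase known to phosphorylate Irs1 on serine in muscle, read 241.6, 225.2 and 219.7 in KO against 203.5, 207.0 and 202.5 in WT, a difference of 0.39 (SE 0.15), and 0.30 without KO 1. Both had each KO array above each WT array and neither passed (limma adjusted p = 0.582). Both are dim, and without background correction the differences were 0.22 for Socs6 and 0.16 for Prkcq. Downstream kinases and FoxO factors had 9 of 16 tested, 6 of them below 0, with a median of -0.20. Besides Foxo1, the smallest p was that of Rictor, a subunit of the mTOR complex that phosphorylates Akt, with a difference of -0.40 (SE 0.20), and of -0.23 without KO 1. Its 3 other tested probes differed by -0.49, 0.14 and 0.049.

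**Figure D4:**
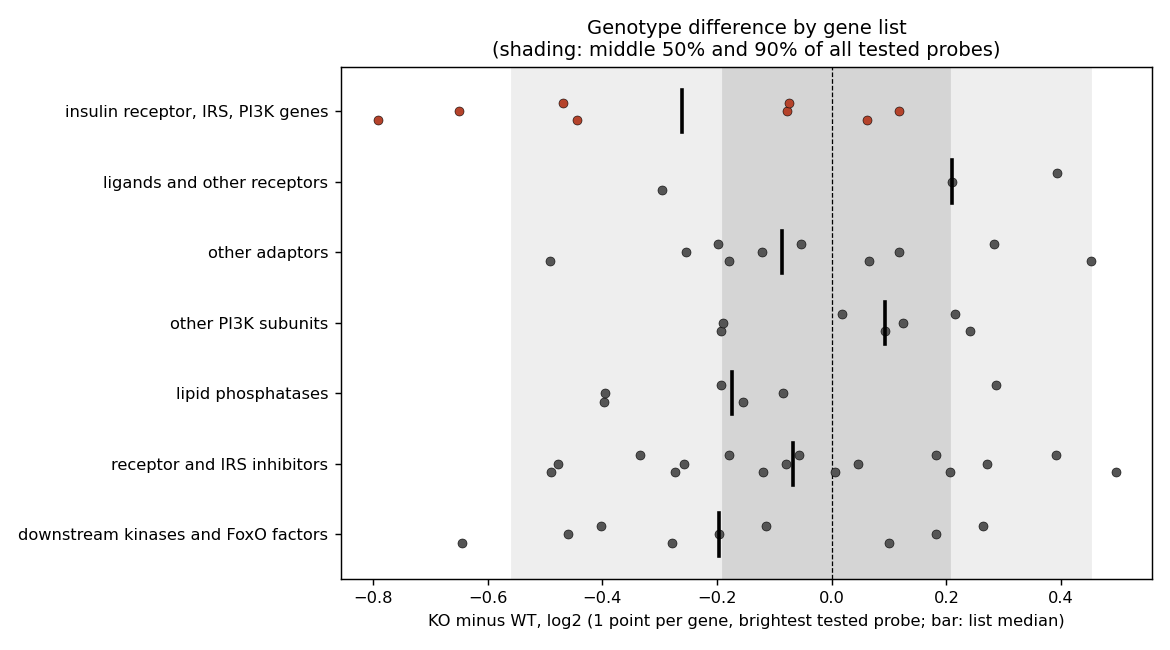
Difference of KO minus WT (log2, x axis) for the brightest tested probe of each gene, by list, with list medians as bars and the middle 50% and 90% of all tested probes as shading. Igf1r (-0.79), Irs2 (-0.65) and Foxo1 (-0.65) lie left of the shaded range, which runs from -0.56 to 0.45. Socs6 (0.50) lies right of it, Nck1 (0.45) lies at its right edge, and the other genes lie inside it.

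Other genes followed the arrays in the same pattern. Over the 6 arrays the log2 values most like those of the brightest Insr probe were those of Apbb2, which encodes a partner of the amyloid precursor protein (Pearson's r = 0.9985), Dlk1, a membrane protein related to Notch ligands (r = 0.9981), and Agrn, which encodes agrin (r = 0.9979), among 16823 probes searched. Without KO 1, over 5 arrays, these were 0.997, 0.986 and 0.986. For Irs2 they were Pygo2, a cofactor of Wnt signalling, Csnk2a2, a catalytic subunit of casein kinase, and Raver1, an RNA-binding protein, with r from 0.9985 to 0.9998 over 6 arrays and from 0.973 to 0.996 without KO 1. They were found by searching for the highest r among many probes over few arrays, so the values describe likeness and carry no test.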

How the data were processed

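The arrays were Illumina Mouse-6 V2 BeadChips. The deposited table holds, for every probe on each array, a linear intensity and its detection p-value, per the file headers. Although described as not normalized, the deposited intensity had been quantile-normalized: once sorted, the arrays' values differ by no more than 0.4, by a method that the sources used here do not name. The authors' value table holds the log2 of these signals, within 5e-05, with column medians of 7.30 or 7.31. Partek Genomics Suite 6.5 is named per the labels' design text.

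Signals went through neqc (limma 3.58.1, R 4.3.3; offset 16, background from the detection p, taken as set against negative controls). Probes with detection p under 0.05 on 3 or more arrays were tested, 20006 of 45281. KO and WT were compared with lmFit and eBayes (two-sided), Benjamini-Hochberg over all tested probes. Symbols were updated through Entrez identifiers to RefSeq. The number of arrays limits precision, and the labels do not say how animals were assigned to pools, so p-values measure the spread between pools. Alternatives changed background correction, normalization, filter, variance model, block, source of values and arrays.

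Members, lists and alternatives were chosen with earlier results of these data known. Named genes were all members, the 2 smallest p per pathway list, the 3 genes most like Insr and Irs2, and Nr5a1, Foxo1, Npy, Amy2a5 and Ins2. Npy differed by -0.48 and the brightest Amy2a5 probe by 0.47. Further marker lists, by mean log2 level in KO and in WT, were islets (7.99 and 7.84), astrocytes (10.63 and 10.45) and oligodendrocytes (11.51 and 11.44). The mean astrocyte level was highest on KO 1, at 10.79 against 10.36 to 10.59 on the other arrays. Its summed signal was lowest there, at 31622 against 33480 to 35914. The mean oligodendrocyte level was also highest on KO 1, at 11.57 against 11.41 to 11.48.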

Additional observations from a re-analysis of the deposited data

How the results depend on the processing

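No member probe and no pathway gene passed an adjusted p of 0.05 with limma under any of the 16 alternatives run, with member adjusted p-values from 0.371 to 0.999. Alternatives changed the background correction, the offset to 50, the normalization (cyclic loess), the source of values, the filter, array weights, the intensity trend, the replicate block and the arrays used. The brightest Insr and Igf1r probes and the Irs1 and Irs2 probes stayed below 0 in every alternative that tested them; Irs1 was not tested under the strict filter (detection p under 0.01 on all 6 arrays). Without background correction, dim probes gave smaller differences: -0.028 for the dimmer tested Insr probe, -0.058 for the second Igf1r probe, 0.031 for Pik3ca, and -0.045 and 0.046 for the Pik3r2 probes. Leaving out 1 array at a time gave -0.60 to -0.22 for Insr, -1.08 to -0.31 for Igf1r, -0.63 to -0.22 for Irs1 and -0.97 to -0.048 for Irs2. It gave -0.44 to 0.17 for the second Igf1r probe, -0.021 to 0.16 for Pik3ca and -0.30 to 0.088 for the brighter Pik3r2 probe. Without both arrays numbered 1, chosen after seeing the data, the second Igf1r probe differed by 0.019 and the brighter Pik3r2 probe by 0.030.

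Member probes at an unadjusted p under 0.05 numbered 0 to 2 with 1 array left out. Of all tested probes, 2.19% (without WT 3) to 13.2% (without KO 2) then did so. With array weights there were 2 (Igf1r and Irs1), against 9.32% of all tested probes. Without both arrays numbered 1 there was 1 (Irs1), against 3.15%. Member probes with each KO array below each WT array numbered 3 to 7 with 1 array left out, the highest without KO 2. There were 2 under the strict filter, which tested 9 member probes. Those with each KO array above each WT array numbered 0 to 1 with 1 array left out and 1 without both arrays numbered 1. Without a filter, 5 of 17 member probes lay below, including the pair of undetected Pik3r1 probes. Leaving out an array makes such separation easier for every probe. Its share over all tested probes is given above only for all arrays and without KO 1. The other counts of separated probes therefore cannot be read as a result about the members. Pathway genes at an unadjusted p under 0.05 numbered 0 to 9 of 51 with 1 array left out, against 4 with all arrays. They numbered 0 without WT 1 (2.54% of all tested probes), 1 without WT 2 (7.34%) and 1 without WT 3 (2.19%). They numbered 2 without KO 1 (4.53%), 8 without KO 2 (13.2%) and 9 without KO 3 (12.7%). There were 2 without background correction and 2 in the authors' value table (6.96% each), and 0 without both arrays numbered 1 (3.15%). The replicate number as a block gave 1 member probe at an unadjusted p under 0.05 (Igf1r), against 9.92% of all tested probes. No member or pathway gene passed the adjusted threshold with it. Deviations of same-numbered pools from the mean of their genotype had r of 0.15, 0.0037 and 0.40. The highest r of the same KO pools with a WT pool of another number was 0.10, -0.0016 and -0.15. Deviations from a mean of 3 pools are tied to each other, so a higher r with 1 WT pool lowers the others. The comparison therefore does not decide whether the pools are paired. Whether the numbers mark pairs is not known here, and the main fit did not use them. The causes of the shifts between alternatives were not tested.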
